A study of Mus musculus with 4 samples.

Results

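The genes described here are 10 marker genes of fibroblasts and myofibroblasts, *Pdgfra*, *Pdgfrb*, *Thy1*, *Acta2*, *Tagln*, *Postn*, *S100a4*, *Fap*, *Fn1* and *Sparc*. They were chosen by symbol out of the 55421 genes of the count table, and each symbol matched 1 gene. RNA was sequenced from spermatogonial stem cell (SSC) cultures of CD1 mice, which were established from the testes of 6-day-old pups after differential plating and kept on mouse embryonic fibroblast (MEF) feeder cells. Per the study's methods the MEFs came from outbred CF1 mice and had been arrested by irradiation, so the feeder layer is of another stock than the germ cells. The Veh group (2 libraries) stayed in complete SSC medium. The NRRA group (2 libraries) was given a nutrient restriction medium, in which a balanced salt solution replaced most of the complete medium, plus retinoic acid (RA), and the methods give 48 h for such treatments. The labels state N2 and 10 ng/ml each of bFGF and GDNF for both groups alike, but since the NRRA medium was mostly salt solution, equal amounts in the treated cultures cannot be assumed. They name no genetic change in any library. Each library holds the RNA of germ cells and feeder cells together, and the study states that the libraries of a group are independent biological replicates, while the labels give only replicate numbers. P-values measure the spread between these 2 libraries per group, with each gene's estimate drawn toward those of other genes of similar level. The error of a single marker can therefore be smaller than its own 2 libraries alone would give.

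Fibroblasts build the connective tissue of organs. They secrete collagens, fibronectin and other matrix proteins, and they grow in response to platelet-derived growth factors (PDGF), which are sensed by the receptors PDGFRα and PDGFRβ. Under mechanical load or TGF-β they can become myofibroblasts, which assemble α-smooth muscle actin fibres and contract. MEFs are used under germ cell cultures because they supply adhesion and growth factors while they do not divide.

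The libraries held between 28022265 and 31604769 counts, and the floor of 3 counts was worth 0.0920 to 0.110 CPM (counts scaled to a common library size). *Stra8*, the RA-induced gene of meiotic initiation, stood at 9.61 and 10.1 CPM in Veh against 1862 and 1851 CPM in NRRA, which matches the group labels. The defining germ cell genes *Ddx4* and *Dazl* were present at means of 270.0 and 661 CPM in Veh and 274 and 737 CPM in NRRA. The defining matrix genes of fibroblasts, *Col1a1*, *Col1a2* and *Col3a1*, had means of 1232, 594 and 244 CPM in Veh, and all 10 markers passed the filter on low counts. Of the 8 Sertoli cell markers 5 passed that filter, led by *Sox9* with a mean of 28.2 CPM in Veh, while *Fshr* and *Cst9* were at 0 in every library.

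All 10 markers were measured, and they did not move by a common factor. With an adjusted p under 0.05 in edgeR's quasi-likelihood test, 2 of the 10 were higher in NRRA (*Fap* and *Pdgfra*) and 7 were lower (*S100a4*, *Thy1*, *Tagln*, *Fn1*, *Acta2*, *Pdgfrb* and *Sparc*), and *Postn* was not called. Among all 20232 genes tested 27.9% were higher, 28.4% were lower and 56.4% were called in either direction. The log2 fold changes of NRRA over Veh spanned 4.74 log2 units, from -1.01 to 3.73, whereas 2 libraries of the same group differed in a marker by 0.0034 to 0.589 log2 units with a median of 0.054. Of the 45 pairs of markers, 34 had 95% intervals of the log2 fold change that did not overlap. The share over pairs of all genes was not counted. The median log2 fold change of the 10 was -0.33, against 0.00030 over all genes tested. In bulk RNA, fewer cells of a type and less RNA of a gene per cell cannot be told apart for any single value below.

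**Figure D1:**
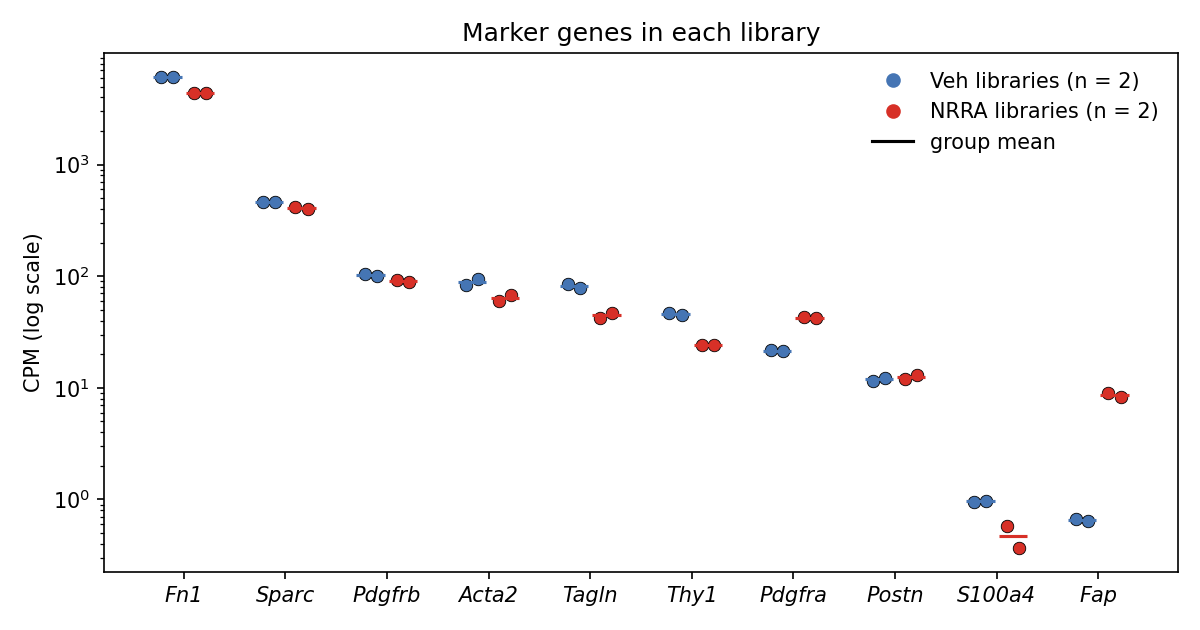
CPM of each marker gene (log axis) in the 2 Veh (blue) and 2 NRRA (red) libraries, with a line at each group mean. The markers run from 0.365 CPM for *S100a4* in NRRA replicate 2 to 6136 CPM for *Fn1* in Veh replicate 1, and only *Postn* has overlapping groups.

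The levels of the markers differed by several orders of magnitude. Scaled to the exonic length of each gene, *Fn1* came first in Veh with 523 CPM per kb, followed by *Sparc* with 121. *Tagln* (41.2) and *Acta2* (40.1 CPM per kb) followed, the only neighbours in this order whose libraries overlapped. Next came *Pdgfrb* with 18.8, *Thy1* with 15.3, *Pdgfra* with 2.15, *S100a4* with 1.65 and *Postn* with 1.37 CPM per kb. *Fap* was last with 0.115 CPM per kb. The place of *S100a4* is uncertain, because 51.7% of its exonic bases overlap *Gm42674* on the same strand and reads there may have gone uncounted. That of *Tagln* is uncertain too, because its reads cannot be told apart from those of *Gm48529*, as described below. In NRRA *Acta2* (29.2 CPM per kb) stood above *Tagln* (22.5) in both libraries. *Fap* stood at 1.53 CPM per kb, where it overlapped with *Postn* at 1.44 CPM per kb.

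The RNA of genes for surface proteins used as fibroblast markers moved in both directions. *Pdgfra* (ENSMUSG00000029231, GRCm38 chr5:75152292-75198215, plus strand) encodes the PDGF receptor that binds A, B and C chains, and it marks mesenchymal progenitors. It had 588 and 639 counts in Veh replicates 1 and 2 against 1404 and 1265 in NRRA replicates 1 and 2. Both NRRA libraries were far above both Veh libraries. Its level rose from 21.6 ± 0.144 to 42.5 ± 0.770 CPM (mean ± SD, n = 2, log2 fold change 0.98, SE 0.064, 95% interval 0.85 to 1.11, and adjusted p = 6.35e-13 in edgeR). Of all genes tested, 93.1% had a smaller log2 fold change.

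*Pdgfrb* (ENSMUSG00000024620, chr18:61045150-61085061, plus strand) encodes the sister receptor, which binds B and D chains and is prominent on pericytes and cultured fibroblasts. It had 2836 and 3019 counts in Veh against 2983 and 2648 in NRRA. The raw counts overlapped, but after scaling by library size the groups did not. Its level fell from 103 ± 2.19 to 89.7 ± 2.57 CPM (log2 fold change -0.20, SE 0.039, and adjusted p = 1.18e-04 in edgeR). The 2 receptors therefore moved apart, and the counts of *Pdgfra* per 100 counts of *Pdgfrb* were 20.7 and 21.2 in the Veh libraries against 47.1 and 47.8 in the NRRA libraries.

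*Thy1* (ENSMUSG00000032011, chr9:44043384-44048579, plus strand) encodes CD90, a GPI-anchored surface glycoprotein of fibroblasts and of T cells that is also used to enrich cultured spermatogonial stem cells. It had 1283 and 1328 counts in Veh against 795 and 725 in NRRA. Both NRRA libraries were clearly below both Veh libraries. The level fell from 45.9 ± 1.89 to 24.2 ± 0.232 CPM (log2 fold change -0.92, SE 0.062, and adjusted p = 1.33e-12 in edgeR). Because *Thy1* is known from both cell types of these cultures, its counts cannot be assigned to the feeder layer from these libraries.

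*Fap* (ENSMUSG00000000392, chr2:62500943-62574075, minus strand) encodes fibroblast activation protein, a surface serine protease of activated stromal cells. It had 18 and 19 counts in Veh against 294 and 249 in NRRA. *Fap* was scarce but above the floor in both Veh libraries and far higher in both NRRA libraries. The mean level went from 0.650 ± 0.0177 to 8.64 ± 0.534 CPM, a 13.2-fold rise (log2 fold change 3.73, SE 0.20, 95% interval 3.30 to 4.15, edgeR adjusted p = 2.11e-14), and 99.7% of the genes tested had a smaller log2 fold change. Per 100 counts of *Pdgfrb* there were 0.635 and 0.629 counts of *Fap* in Veh, and 9.86 and 9.40 in NRRA. *Dpp4*, the closest relative of *Fap* and its neighbour on chromosome 2, had 5 and 8 counts in Veh against 12 and 20 in NRRA (log2 fold change 1.15, SE 0.56, edgeR adjusted p = 0.0858).

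The cytoskeletal markers of myofibroblasts were lower in NRRA. *Acta2* (ENSMUSG00000035783, chr19:34241090-34255590, minus strand) encodes α-smooth muscle actin, the defining protein of myofibroblast stress fibres. It had 2246 and 2782 counts in Veh against 1967 and 2041 in NRRA. The Veh libraries differed from each other more than for any other marker, yet both lay above both NRRA libraries. The level fell from 88.1 ± 7.55 to 64.0 ± 5.23 CPM (log2 fold change -0.46, SE 0.055, 95% interval -0.58 to -0.35, and adjusted p = 6.32e-08 in edgeR).

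*Tagln* (ENSMUSG00000032085, chr9:45929619-45936058, minus strand) encodes transgelin or SM22α, a calponin-family protein that binds actin. It had 2297 and 2358 counts in Veh against 1381 and 1418 in NRRA. Both NRRA libraries were well below both Veh libraries. The level fell from 81.9 ± 3.84 to 44.7 ± 3.32 CPM (log2 fold change -0.87, SE 0.053, 95% interval -0.98 to -0.77, and adjusted p = 1.37e-13 in edgeR), so its interval did not overlap that of *Acta2*. Counts of *Tagln* per 100 counts of *Acta2* were 102 and 84.8 in Veh and 70.2 and 69.5 in NRRA. Of the exonic bases of *Tagln*, 67.9% overlap genes on the opposite strand, *Pcsk7* and *Gm48529*. *Gm48529* had 2225 and 2311 counts in Veh against 1341 and 1393 in NRRA, almost the same as *Tagln* in each library, and since the strand setting of the counting is not given in the sources used here, reads of *Tagln* and *Gm48529* cannot be told apart.

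*Acta2* and *Tagln* are textbook targets of serum response factor (SRF), which binds CArG boxes with its myocardin-family partners. RefSeq upstream windows of 250 bases were at hand for 5 of the 10 genes (*Acta2*, *Pdgfra*, *S100a4* and *Sparc* with 1 each and *Postn* with 2), not for *Tagln*. No window held a full CArG box, which 1.47% of all 32851 windows hold on either strand. The *Acta2* window held 2 CArG boxes with 1 core base that is C or G, a form in 7.24% of all windows. They are shown because SRF is known to act on this gene through CArG boxes near its start. The stretches of 30 bases run 5′ to 3′ on the minus strand (GRCm38.p6), with the CArG letters in capitals. By RefSeq they lie upstream of the start, whereas GENCODE places them in the first exon of a transcript that starts further upstream.
*Acta2* chr19:34255438-34255467: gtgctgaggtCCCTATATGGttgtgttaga
*Acta2* chr19:34255388-34255417: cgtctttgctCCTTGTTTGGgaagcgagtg

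The first element lies at bases -84 to -75 and the second at -34 to -25 from the RefSeq start. A TEAD site (GGAATG, in 12.6% of windows) lies further upstream in the same window. The *S100a4* window and 1 of the 2 *Postn* windows held a TATA box (TATAAA), as did 12.4% of all windows. No direct repeat of the retinoic acid receptor, spaced by 5 or by 2 bases, was in any of these 6 windows, and these repeats were in 0.0883% and 0.174% of all windows. These matches describe letters only, and nothing about binding in these cells was measured.

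Beyond *Acta2* and *Tagln*, 20 contractile and SRF target genes were tested, and 13 were lower, 5 were higher and 2 were not called, with a median log2 fold change of -0.26. *Srf* itself had 2530 and 2682 counts in Veh against 1433 and 1232 in NRRA (log2 fold change -1.11, SE 0.048, and adjusted p = 1.51e-16 in edgeR). The highest of the list was *Lmod1*, the gene of the smooth muscle protein leiomodin 1, at 0.66 (SE 0.25, edgeR adjusted p = 0.0243) from 48 and 41 counts in Veh to 72 and 83 in NRRA. *Tagln2*, the close relative of *Tagln*, fell with it by 0.76 on the log2 scale (SE 0.037). *Actb*, the cytoplasmic β-actin that every cell uses, went from a mean of 2245 to 1770 CPM (log2 fold change -0.34, SE 0.021), with a 95% interval that overlapped that of *Acta2*. The other cytoplasmic actin, *Actg1*, was at -0.46 (SE 0.024), the same value as *Acta2* had. Its values and those of *Smoc1* below were added after they had been seen.

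The secreted matrix markers include the most abundant of the 10 genes. *Fn1* (ENSMUSG00000026193, chr1:71585520-71653200, minus strand) encodes fibronectin, the large matrix glycoprotein to which cells adhere through integrins. It had 166615 and 181105 counts in Veh against 142061 and 131008 in NRRA. The 2 libraries of each group were nearly equal after scaling, and the groups lay apart. The level fell from 6108 ± 39.9 to 4352 ± 7.28 CPM (log2 fold change -0.49, SE 0.017, and adjusted p = 1.44e-18 in edgeR), and by mean CPM *Fn1* ranked 3 among all genes tested. It made up between 86.2% and 88.3% of the summed counts of the 10 markers in each library, so any sum over them mostly follows this gene. That sum was 0.673% and 0.669% of all counts in Veh against 0.522% and 0.520% in NRRA. In summed CPM the ratio of NRRA over Veh was 0.729, and without *Fn1* it was 0.854.

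*Sparc* (ENSMUSG00000018593, chr11:55394500-55423183, minus strand) encodes osteonectin, a collagen-binding matricellular protein. It had 12439 and 13758 counts in Veh against 13549 and 12105 in NRRA. After scaling, both NRRA libraries were slightly below both Veh libraries. The level fell from 460.0 ± 2.65 to 409 ± 9.84 CPM (log2 fold change -0.17, SE 0.025, 95% interval -0.22 to -0.12, and adjusted p = 2.22e-06 in edgeR), a smaller fall than that of *Fn1*, whose interval ran from -0.52 to -0.45. Its relatives did not move alike. *Smoc1* was at a mean of 89.6 CPM in Veh and of 91.3 CPM in NRRA (log2 fold change 0.027, SE 0.039, and adjusted p = 0.591 in edgeR). *Sparcl1* had 19 and 28 counts in Veh against 315 and 278 in NRRA (log2 fold change 3.51, SE 0.19), whereas *Smoc2* had 2178 and 2323 counts in Veh against 666 and 583 in NRRA (log2 fold change -1.99, SE 0.057).

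*Postn* (ENSMUSG00000027750, chr3:54361109-54391037, plus strand) encodes periostin, a matricellular protein induced by TGF-β in activated fibroblasts. It had 313 and 365 counts in Veh against 394 and 391 in NRRA. The groups overlapped in CPM, the one marker of which this is true, while 9 of the 10 did not overlap, as was the case for 76.7% of all genes tested. The level was 11.9 ± 0.513 CPM without and 12.5 ± 0.629 CPM with NRRA (log2 fold change 0.073, SE 0.10, and adjusted p = 0.565 in edgeR). The 95% interval ran from -0.13 to 0.28, so a change as large as those of *Fn1* or *Pdgfra* lies outside it. *Tgfbi*, which encodes the related fasciclin-domain protein, fell by 0.76 on the log2 scale (SE 0.10).

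*S100a4* (ENSMUSG00000001020, chr3:90603771-90606045, plus strand) encodes FSP1, a small calcium-binding protein that is used as a fibroblast marker and is also known from immune cells. It had 26 and 29 counts in Veh against 19 and 11 in NRRA. Both NRRA libraries were below both Veh libraries, but on few counts, and NRRA replicate 2 was much lower than NRRA replicate 1. The mean went from 0.966 ± 0.0113 to 0.474 ± 0.154 CPM (log2 fold change -1.01, SE 0.41, 95% interval -1.86 to -0.17, and adjusted p = 0.0381 in edgeR). This call was lost in 6 of 12 alternatives. In DESeq2 the log2 fold change was -1.02 with an adjusted p of 0.243, and without NRRA replicate 2 it was -0.73 with an adjusted p of 0.259. The overlapping *Gm42674* was listed at 0 in every library. Its neighbour *S100a6*, a far more abundant member of the same family, went from a mean of 283 to one of 225 CPM (log2 fold change -0.33, SE 0.030).

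**Figure D2:**
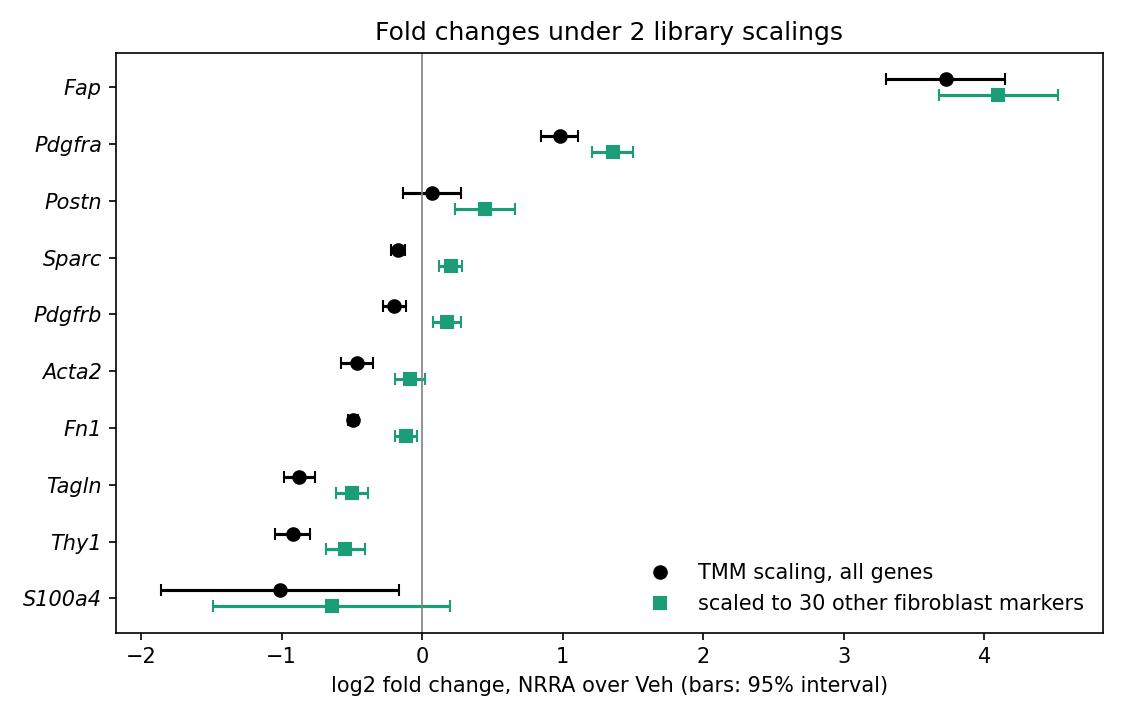
Log2 fold change of NRRA over Veh with its 95% interval for each marker, with TMM scaling (black circles) and with libraries scaled to the summed counts of 30 other fibroblast markers (green squares). With TMM scaling the values run from -1.01 for *S100a4* to 3.73 for *Fap*, and scaled to the other fibroblast markers *Sparc* and *Pdgfrb* lie to the right of 0, while *Acta2* and *S100a4* have intervals that include 0.

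To ask whether the markers followed one shared factor, they were set against 30 other fibroblast markers, chiefly collagens, proteoglycans and matrix enzymes. Of these 30, 24 were lower in NRRA, 2 were higher and 4 were not called, with a median log2 fold change of -0.33, close to that of the 10 markers. Their summed level was 9350 and 9341 CPM in Veh against 7344 and 7073 CPM in NRRA. Single genes of the list departed from it too. *Col1a1* had a log2 fold change of -0.097 (SE 0.025), *Col1a2* of -0.19 (SE 0.026) and *Col3a1* of 0.61 (SE 0.033), the highest of the list. The lowest was *Col6a3*, with 2461 and 2732 counts in Veh against 687 and 641 in NRRA (log2 fold change -2.11, SE 0.053).

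When the libraries were scaled so that this sum was equal in all 4, the median over all genes moved up by 0.37. Of all genes tested, 56.9% were then higher and 11.1% lower, 68% in all. Relative to that sum, 5 of the 10 markers were higher in NRRA (*Fap*, *Pdgfra*, *Postn*, *Sparc* and *Pdgfrb*). Another 3 were lower (*Thy1*, *Tagln* and *Fn1*), and 2 were not called (*Acta2* and *S100a4*). Single genes of the sum can lie above these markers, as *Col1a1* lay above *Sparc* and *Pdgfrb*. The SEs leave out the spread among the genes of the sum. *Fap* was at 4.10 (SE 0.22) and *Pdgfra* at 1.35 (SE 0.073) on this relative log2 scale, and *Thy1* at -0.55 (SE 0.071) and *Tagln* at -0.50 (SE 0.058). *Postn*, which had not been called with TMM scaling, was at 0.45 (SE 0.11, edgeR adjusted p = 8.6e-05). *Acta2* was at -0.087 (95% interval -0.19 to 0.020, edgeR adjusted p = 0.147).

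The smaller relative values depended on which genes set the scale. Scaled to 5 collagens alone (*Col1a1*, *Col1a2*, *Col3a1*, *Col5a1* and *Col5a2*, without the type VI collagens of the list, such as *Col6a3*), *Pdgfrb* turned to -0.074 and *Sparc* to -0.046, *Postn* was no longer called (edgeR adjusted p = 0.154), and 2 markers were higher (*Fap* and *Pdgfra*). *Acta2* was at -0.34 on that scale and was called lower. Scaled to the other fibroblast markers as before, *Acta2* turned to 0.0060 without Veh replicate 2 and to 0.022 without NRRA replicate 1, and was called lower at -0.17 without Veh replicate 1 and at -0.20 without NRRA replicate 2. *Fn1* was no longer called without Veh replicate 1 (-0.11, edgeR adjusted p = 0.248) or Veh replicate 2 (-0.12, adjusted p = 0.194), nor *Pdgfrb* without Veh replicate 2 (0.16, adjusted p = 0.0564). Their values stayed near those from all 4 libraries, and in such fits the lone Veh library is assumed to vary as the NRRA libraries do. *Fap*, *Pdgfra*, *Thy1* and *Tagln* kept their directions and calls under each of the 9 alternatives tried.

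**Figure D3:**
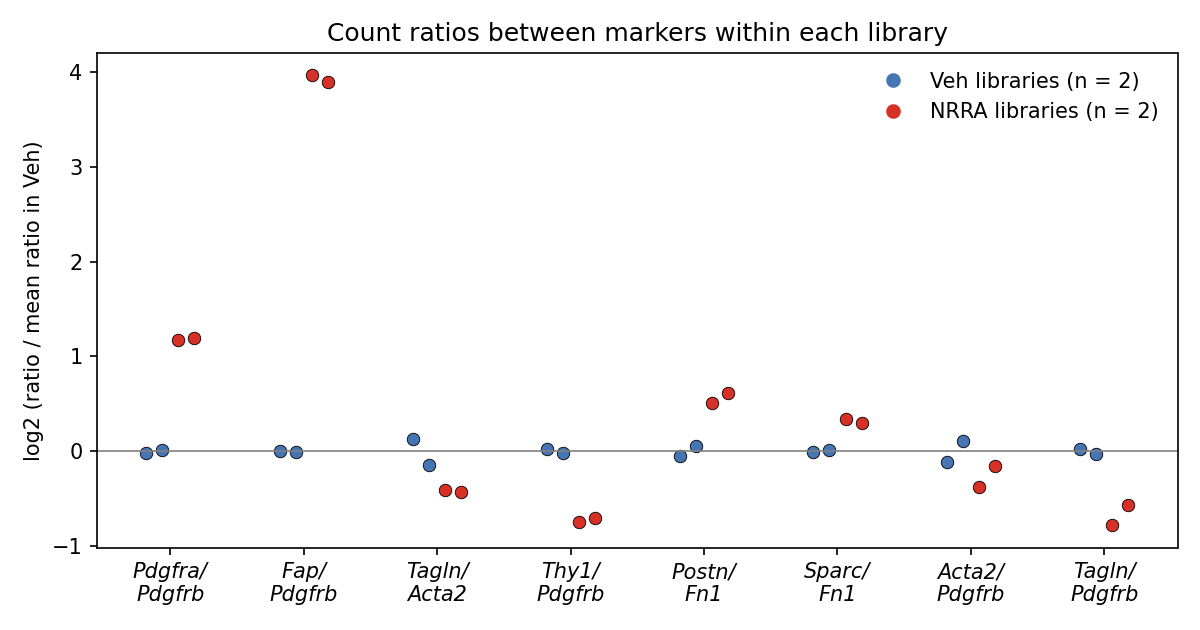
Log2 of the ratio between the counts of 2 markers in each library, relative to the mean ratio in Veh, for 8 pairs of markers in the 2 Veh (blue) and 2 NRRA (red) libraries. The groups overlap in none of these 8 pairs, which were picked from 45 of which 5 overlap, and of the 8 the ratio of *Fap* to *Pdgfrb* is displaced furthest, 15.2-fold up.

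Ratios within a library need no scaling between libraries. Of the 45 possible pairs of markers, 40 had ratios that did not overlap between the groups and 5 had ratios that did, namely *Pdgfrb* to *Sparc*, *Thy1* to *Tagln*, *Thy1* to *S100a4*, *Tagln* to *S100a4* and *Acta2* to *Fn1*. *Acta2* had 1.35 and 1.54 counts per 100 counts of *Fn1* in Veh against 1.38 and 1.56 in NRRA. These ratios are descriptions with no test. The share over pairs of all genes was not counted, and of all single genes tested 76.7% did not overlap in CPM. Another 8 pairs were picked for display with the results known, and none of them is among the 5. *Pdgfrb*, a receptor with a small change of its own, served as the denominator for 5 of them. Per 100 counts of *Pdgfrb*, *Thy1* went from 45.2 and 44.0 in Veh to 26.7 and 27.4 in NRRA. *Tagln* went from 81.0 and 78.1 to 46.3 and 53.5, and *Acta2* from 79.2 and 92.1 to 65.9 and 77.1, where the nearest libraries of the groups almost met. Among the matrix genes, *Sparc* went from 7.47 and 7.60 to 9.54 and 9.24 counts per 100 counts of *Fn1*, and *Postn* from 0.188 and 0.202 to 0.277 and 0.298. In these picked pairs the counts of *Sparc* and of *Postn* relative to *Fn1* were higher in NRRA, which was not tested.

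**Figure D4:**
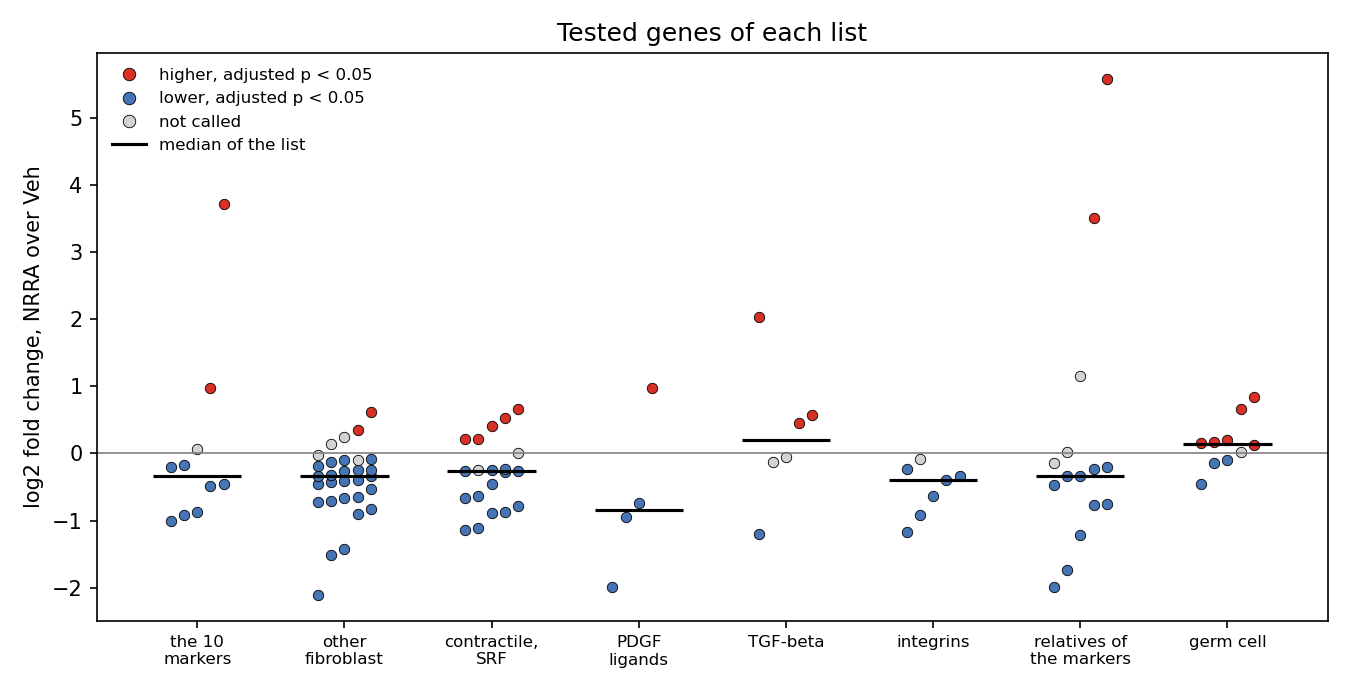
Log2 fold change of NRRA over Veh for every tested gene of 8 lists, coloured by call at an adjusted p of 0.05, with a black line at the median of each list. The 10 markers and the 30 other fibroblast markers have the same median of -0.33, and the PDGF ligands lie lowest at -0.84.

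The ligands of the PDGF receptors were mostly lower. *Pdgfb*, whose chain binds both receptors, had 3438 and 3836 counts in Veh against 1078 and 930 in NRRA and was 3.99-fold lower, the largest fall of the 4. *Pdgfa* and *Pdgfc*, ligands of PDGFRα, were at -0.73 (SE 0.060) and -0.94 (SE 0.11). *Pdgfd*, a ligand of PDGFRβ, rose from 42 and 41 counts to 103 and 78 (log2 fold change 0.98, SE 0.23, edgeR adjusted p = 8.61e-04). Thus *Pdgfra* was higher while its ligands *Pdgfa*, *Pdgfb* and *Pdgfc* were lower in the same libraries. Which cells made these ligands cannot be told apart here.

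The TGF-β genes, which drive the myofibroblast state, were divided. Of 6 ligands and receptors, 3 were higher, 1 was lower and 2 were not called. *Tgfb1* fell from 2070 and 2128 counts in Veh to 1088 and 931 in NRRA (log2 fold change -1.20, SE 0.055), whereas *Tgfb2* rose from 211 and 227 to 1027 and 960 (log2 fold change 2.04, SE 0.085). Of 7 integrin subunits that bind fibronectin or periostin, 6 were lower and none was higher. *Itga5*, the α5 chain of the classical fibronectin receptor, fell by 1.18 on the log2 scale (SE 0.043), more than *Fn1* itself, and *Itga4* was at -0.078 (SE 0.15, edgeR adjusted p = 0.691).

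Of 19 relatives of the markers, 15 passed the filter, and 10 were lower, 2 were higher and 3 were not called. The highest was *Kit*, a receptor of the same family as the PDGF receptors that is also the classical marker of differentiating spermatogonia. It had 283 and 328 counts in Veh against 16672 and 15685 in NRRA (log2 fold change 5.59, SE 0.042). *Kit* is also the next tested gene after *Pdgfra* on chromosome 5, and the gene after it, *Kdr*, was at -1.46 (SE 0.17). The neighbours were looked up after the values of the markers had been seen. Of the 40 tested genes nearest to the 10 markers, 2 on each side, 8 were higher, 18 were lower and 14 were not called. These include *Gm48529*, *Pcsk7* and *Apol7d*, which overlap exons of a marker and could share its reads, so this count is not read against all genes.

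Markers of other cells moved in the same libraries. The germ cell markers were together at 2318 and 2382 CPM in Veh and at 2689 and 2695 CPM in NRRA, with 6 of 10 higher, 3 lower and 1 not called. The lower count was not stable, with 2 lower in DESeq2 and 1 with library size only. *Ddx4* was at 0.023 in log2 fold change (SE 0.028, edgeR adjusted p = 0.511) and *Dazl* at 0.16 (SE 0.053, edgeR adjusted p = 0.0447), while *Sall4* was highest at 0.84 and *Tdrd1* lowest at -0.45. The summed level of germ cell genes was thus higher where that of the fibroblast genes was lower, and the part of this in the values of the 10 markers was not tested.

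Genes used as markers of other somatic cells of the testis had few counts. Which cells these counts came from cannot be told here. The 8 Sertoli cell markers summed to 35.7 and 39.6 CPM in Veh and to 18.2 and 19.5 CPM in NRRA, with *Sox9* at -1.59 (SE 0.086), *Wt1* at -0.28 (SE 0.14, edgeR adjusted p = 0.0827) and *Aard* at 1.95 (SE 0.33). The 6 Leydig cell markers summed to between 7.55 and 9.57 CPM in all libraries, and *Cyp17a1* had between 6 and 15 counts. Of the 2 that passed the filter, *Cyp17a1* was at -0.075 (SE 0.56) and *Star* at 0.31. The 6 endothelial markers summed to 19.0 and 19.1 CPM in Veh and 8.19 and 8.10 CPM in NRRA, with *Pecam1* at -1.96 (SE 0.16) and *Tek* at 0.51 (SE 0.35, edgeR adjusted p = 0.233). The 6 macrophage markers, which include *Ptprc* with 6 to 12 counts, summed to between 41.5 and 52.3 CPM, with *Cd68* at -0.86 (SE 0.13) and *Lyz2* at -0.021 (SE 0.10). The Sertoli cell and macrophage sums were above the CPM of *Postn*, *Fap* and *S100a4* and below those of *Pdgfrb*, *Fn1* and *Sparc*. The part of these cells in the values of the markers was not tested.

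For *Pdgfra* and *Acta2* the genes of most similar pattern were sought among 11323 genes, by the Euclidean distance between log2 CPM values centred on each gene's mean over the 4 libraries. For *Pdgfra* these were *Tmem128* (distance 0.024), *1700013H16Rik* (0.025) and *Fam160a1* (0.026). For *Acta2* they were *Psmg1* (0.040), *Exosc2* (0.042) and *Bcar3* (0.042), which shared its higher value in replicate 2 of each group. Over 4 libraries such a likeness is a description only.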

How the data were processed

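Whole-culture RNA from 2 Veh and 2 NRRA libraries was analysed. The authors deposited raw counts per gene, which were whole numbers. The study's methods describe stranded libraries of mRNA captured on oligo-dT beads, and the labels name a TruSeq kit. The submitters' processing notes name mm10, bcl2fastq, STAR 2.6.1c and featureCounts 1.6.4 without their roles. The annotation release and the strand setting are not given in the sources used here. Replicate numbers follow the titles. For Veh the columns carry other numbers, which were matched through the sample descriptions.

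Counts were tested with edgeR 4.0.16 in R 4.3.3 (filterByExpr, TMM, robust quasi-likelihood F test), with Benjamini-Hochberg adjustment over the 20232 genes tested and a threshold of 0.05. Fold changes give NRRA relative to Veh, intervals are 95% intervals, and CPM refers to TMM-adjusted library sizes. Intervals and floors of single libraries cover counting error only. For the relative values, the library scaling was set so that the summed scaled counts of the 30 other fibroblast markers were equal in all libraries. A likeness was sought among genes whose log2 CPM averaged 3 or more, and log2 CPM used a prior count of 2. The 10 markers and all lists were chosen with earlier results of these data known. The text names all 10 markers, the highest and the lowest gene of every other list, the PDGF ligands, *Srf*, and preset relatives, collagens and cell markers. One gene that this rule names is not reported here. Coordinates, overlaps and exonic lengths were taken from GENCODE M21 (GRCm38), which held 55240 of the 55421 gene identifiers, and upstream sequences from RefSeq (GRCm38.p6). The script was tested on simulated counts before use.

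The replicate numbers do not pair the libraries. Deviations from the group means of same-numbered libraries had a correlation of -0.011 over the genes tested. No 2 libraries of a group agreed within counting noise (chi-square per degree of freedom 2.45 in Veh and 1.99 in NRRA), so none was treated as a library deposited again. Their disagreement does not show that they came from separate cultures. It was small, with a common coefficient of variation beyond counting noise of 2.61%. Alternatives were other scalings and filters, DESeq2 1.42.0, the replicate number as a block, the fit without each library, and other sets of genes for the relative scale.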

Additional observations from a re-analysis of the deposited data

How the results depend on the processing

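Single markers were refitted under 12 alternatives each. Of the 120 values 114 kept their direction and call, and the other 6 were those of *S100a4*, which was no longer called with library size only (adjusted p 0.0577), with no filter beyond 1 count (0.0528), in DESeq2 (0.243), and without Veh replicate 1 (0.101), Veh replicate 2 (0.133) or NRRA replicate 2 (0.259). With library size only, all genes moved up by 0.090, the medians were -0.24 for the 10 markers, -0.24 for the other fibroblast markers and -0.17 for the contractile genes, and 6962 genes were higher and 4593 lower, against 5654 and 5752 with TMM. Leaving out single libraries gave medians of -0.33 to -0.30 for the markers, -0.38 to -0.33 for the other fibroblast markers and -0.29 to -0.26 for the contractile genes. On the scale of the other fibroblast markers, 2 markers were higher with 5 collagens only and 3 with the summed markers without *Fn1*, against 5. Of the 90 relative values of single markers 76 kept direction and call. The reversed values were -0.074 for *Pdgfrb* and -0.046 for *Sparc* with collagens only, and 0.0060 and 0.022 for *Acta2* without Veh replicate 2 and without NRRA replicate 1, within a range of -0.20 to 0.022 over the fits without 1 library. The ratio of summed CPM was 0.776 as a share of raw counts and 0.854 without *Fn1*. The scale of summed markers without *Fn1* and the ratio without *Fn1* were added after seeing the data.

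With the replicate number as a block, 2 markers were higher and 7 lower, as without it, and 5772 genes were higher and 5836 lower. The block changed no marker's call. DESeq2 called fewer genes, 4252 higher and 4314 lower, with 2 markers higher and 6 lower. Why values moved between scalings was not tested. The limits are 2 libraries a group, bulk RNA of mixed cells, and the few counts of *S100a4* and, in Veh, *Fap*.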
